A study of Mus musculus with 4 samples.

Results

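Septins are a family of GTP-binding cytoskeletal proteins, and 9 of their genes were described here in 32Dclone3 cells, a mouse myeloid cell line, with and without added miR-125b. In the deposited tables the septin symbols had been turned into dates, so the 9 genes were taken by those date-like names, 01-sept, 02-sept, 03-sept, 06-sept, 07-sept, 08-sept, 09-sept, 10-sept and 11-sept (Sept1, Sept2 and so on below), out of 21506 genes, with the row of longest exon length kept for each. The RefSeq accession of each kept row except that of Sept6 led back to the septin of the same number. For Sept6 the kept row, a noncoding transcript, had no entry in the RefSeq table, while its other 3 rows matched. The row 15-sept belongs to Selenof, a selenoprotein gene outside the family, and was not used.

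The 2 control libraries came from cells stably infected with a virus named XZ, and the 2 miR-125b libraries from cells infected with the same virus carrying miR-125b. Separate virus supernatants were used for the infections of each condition. Both groups were grown in serum with interleukin-3 from WEHI medium. Poly(A)-enriched RNA was sequenced. These are bulk samples, in which fewer cells expressing a gene and less of its RNA per cell cannot be told apart.

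Septin proteins join end to end into rods that pair and bundle into filaments and rings beneath the plasma membrane. They scaffold actomyosin at the cleavage furrow and the midbody and act as diffusion barriers. The family falls into homology groups named after Sept2, Sept3, Sept6 and Sept7. A rod holds members of several groups, members of a group can replace each other in their position, and Sept7 is the only member of its own. Several septin genes, among them those of human SEPT6, SEPT9 and SEPT11, are known as fusion partners of the MLL gene in acute leukaemia.

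The mature miR-125b-5p (RefSeq, GRCm38.p6) is shown with its seed, bases 2 to 8, in capitals, and below it are matches to the seed in septin 3′ UTRs, each 5′ to 3′ with the matching bases in capitals. They are shown because a miRNA acts chiefly through such matches.
miR-125b-5p: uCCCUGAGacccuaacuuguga
Sept3 (7mer-m8): tatgcgtgtaCTCAGGGgtgagg
Sept6 (7mer-A1): cactgtgtaaTCAGGGAactcag
Sept2 (7mer-A1): ctgtgagtgaTCAGGGAagttca
Sept11 (7mer-A1): ctctggagagTCAGGGAataaga
Sept8 (6mer): gaaattaagtTCAGGGccccgg

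Matches were searched on the sense strand of the longest 3′ UTR that GENCODE M21 gives a gene, with coordinates in GRCm38, whereas the tables use mm9. CTCAGGG pairs with the whole seed (7mer-m8) and becomes an 8mer when A follows. TCAGGGA is a 7mer-A1 and TCAGGG, contained in all of these, a 6mer. The Sept3 match lies on the plus strand at chr15:82291153-82291159, that of Sept6 on the minus strand at chrX:36913826-36913832, and those of Sept2, Sept11 and Sept8 on the plus strand at chr1:93509329-93509335, chr5:93173323-93173329 and chr11:53542866-53542871. Sept6 also holds 2 6mers, Sept2 another 6mer and Sept10 a 7mer-A1 that is not shown, as its gene had no reads. The Sept6 matches are those of a single 3′ UTR of 3141 bases. Transcripts of Sept6 end in different last exons (below), and other 3′ ends were not searched, so the matches need not be present in each. No match of these letters is present in the 3′ UTRs of Sept1, Sept7 and Sept9. Among the 8 septins that entered the test described below, 1 thus had a 7mer-m8 or 8mer, Sept3, against 17.1% of 9950 tested genes with an annotated 3′ UTR, and 5 had a match of any kind, against 38.9%. The 3′ UTRs of these 5 are 2566 to 3701 bases long, where the median of the tested genes was 1334 bases. The shares were not adjusted for that length, so no excess of matches in septins is read from them. A match is a description of the sequence and not a tested site.

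Each library held between 10.4 and 12.6 M reads summed over all transcript rows. The hairpin row of Mir125b-1 held 0 reads in both control libraries and 4 in each miR-125b library. RPKM are reads per kilobase of exon, scaled per M of the library's reads as summed over all transcript rows. All 8 of the myeloid progenitor markers with a row reached 1 RPKM in at least 1 library. Their summed level ranged from 567.4 to 1069 RPKM in control and from 658.9 to 941.6 RPKM with miR-125b. Markers of T cells, B cells, fibroblasts and neurons (2 of 4 neuronal ones with a row) each summed to at most 0.466 RPKM in any library, and Ms4a1, Pax5, Col1a2 and Col3a1 were at 0 in all. Erythroid markers summed to between 3.34 and 5.15 RPKM in control and between 3.14 and 5.75 RPKM with miR-125b. Control replicate 2 stood apart from control replicate 1 in a way that followed the GC content of transcripts (Spearman's rank correlation 0.475 across 10256 genes, a description, since genes share the libraries).

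Septin genes ranged from abundant to unread in these cells, and 8 of the 9 genes were read in every library. By mean RPKM, which is per exon length, the order of genes is approximate. Values depended on the row kept, and the gap between the controls followed GC content. Sept9 was the most abundant. It averaged 111.6 RPKM over the 4 libraries, and 3.92% of the 10310 tested genes stood higher. Sept1 followed at 86.5, Sept7 at 79.2, Sept2 at 71.8, Sept11 at 69.2, Sept8 at 52.8, Sept6 at 27.4 and Sept3 at 5.30 RPKM. Of the tested genes, 25.2% stood above Sept6 and 76.8% above Sept3. From Sept9 down to Sept11, each gene's range over the 4 libraries overlapped that of the next. Within libraries, Sept9 was nonetheless above Sept1 in 4 of 4, Sept1 above Sept7 in 2, Sept7 above Sept2 in 3 and Sept2 above Sept11 in 3. The ranges of Sept11 and Sept8, of Sept8 and Sept6, and of Sept6 and Sept3 did not overlap.

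**Figure D1:**
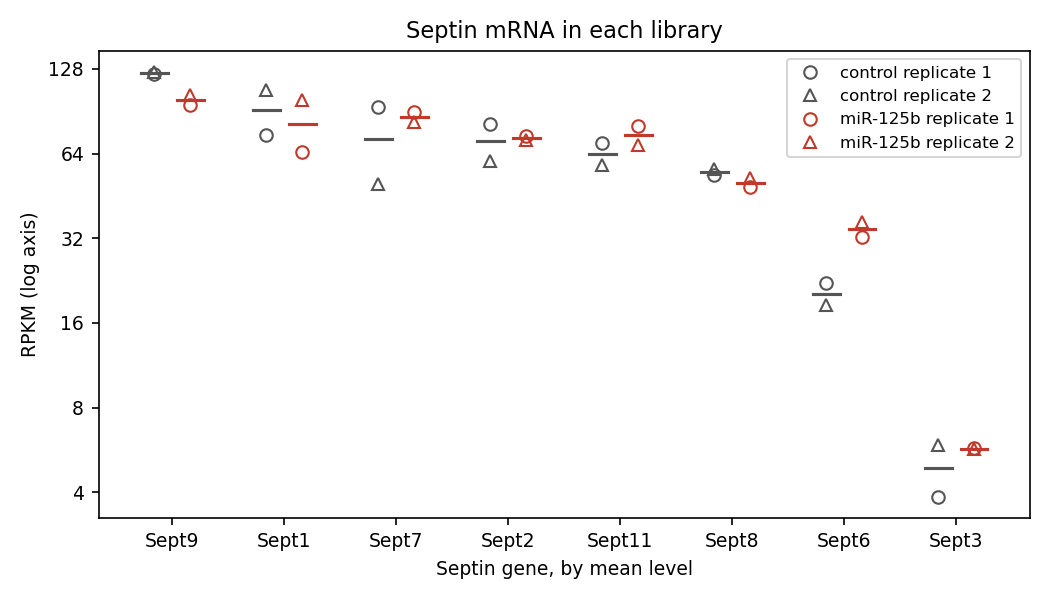
RPKM on a log axis for the 8 septins with reads, ordered by mean level; grey symbols are control and red symbols miR-125b libraries, circles replicate 1 and triangles replicate 2, and bars are group means. Sept6 is the septin whose miR-125b libraries (32.5 and 36.6 RPKM) lie above both controls (22.2 and 18.5 RPKM).

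Summed over the 8 genes, septin mRNA came to 522.1 and 481.8 RPKM in the controls, against 490.3 and 521.1 RPKM with miR-125b, so the groups overlapped. Sept10 had 0 reads in all 4 libraries in both of its transcript rows. At its exon length of 2539 bases a count of 0 allows up to 3 reads, or between 0.0936 and 0.114 RPKM depending on the library (a limit that covers counting error only, as do all counting intervals here). The rows of the other 4 septins, Sept4, Sept5, Sept12 and Sept14, held at most 2 reads in any library.

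Between conditions, Sept6 had the largest difference of the family and was higher with miR-125b, while Sept9 and Sept8 were the septins whose 2 miR-125b values lay below both controls. None passed the test across all genes. The test was limma's moderated linear model on log2(RPKM + 1), fitted to the 10310 genes with at least 1 RPKM in at least 2 libraries, with Benjamini-Hochberg adjustment over all of them. Of the 8 septins tested, 0 had an adjusted p under 0.05, as had 0 of all genes (0% called). Over all genes that count rose to 91 and 25 when the miR-125b replicates 1 and 2 were left out, and to 1 without control replicate 2, with no septin among them. At an unadjusted p under 0.05 there was 1 septin, Sept6, where 9.38% of all genes lay below that level (967 genes, 332 when miR-125b replicate 2 was left out and 3007 when control replicate 1 was). The 2 groups did not overlap in 1 septin in the higher direction (22.3% of all genes) and in 2 in the lower direction (20.4% of all genes), in all 3 of 8 where 42.8% of all genes did so, and nothing particular to septins is read from these counts. The median log2 difference of the 8 was 0.14, with 5 higher and 3 lower, and that of all tested genes was 0.024.

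The Sept6 group supplies a core subunit of the rod, and its members here are Sept6, Sept8, Sept10 and Sept11. Sept6 (chromosome X, 34453441 to 34529690 in mm9, minus strand, 11 exons) stood at 22.2 and 18.5 RPKM in control replicates 1 and 2, against 32.5 and 36.6 RPKM in miR-125b replicates 1 and 2. Both miR-125b libraries were above both controls, and the gap between the groups was wider than that within either. The means were 20.4 ± 2.67 and 34.5 ± 2.91 RPKM (SD, n = 2 each), 1.70 times higher with miR-125b. The values rested on 1177, 903, 1930 and 2022 reads, and counting intervals (95%, exact Poisson) of the control and miR-125b libraries did not overlap. The intervals of replicates within each condition did not overlap either. A lack of overlap in these intervals therefore does not separate a difference between conditions from one between replicates. The log2 difference was 0.74 ± 0.19 (SE), with an unadjusted p of 0.00736 and an adjusted p of 0.426 in limma's test. Of all tested genes, 1.72% had a smaller p. The difference ran from 0.61 to 0.86 with single libraries left out.

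In each of the 4 transcript rows of Sept6 both miR-125b libraries were above both controls. The coding transcript that ends in the most distal exon (3550 bases) stood at 16.1 and 15.5 RPKM in the controls, against 24.0 and 25.6 RPKM with miR-125b. The transcript with a different last exon (chromosome X, 34453441 to 34455342 in mm9) was higher in every library, at 21.7 and 19.9 against 32.6 and 37.0 RPKM. The kept noncoding row extends that last exon by 1198 bases and adds an exon of 45 bases. Reads found in these 1243 added bases alone numbered 333 and 185 in control and 501 and 515 with miR-125b, equal to 23.9, 14.3, 31.9 and 35.3 RPKM. The upper libraries were thus the miR-125b ones in bases that the coding rows do not contain. In the shortest row, the log2 difference was 0.62 (adjusted p = 0.471 in limma's test, and 0.309 to 0.554 over the 9 alternatives with all libraries).

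**Figure D2:**
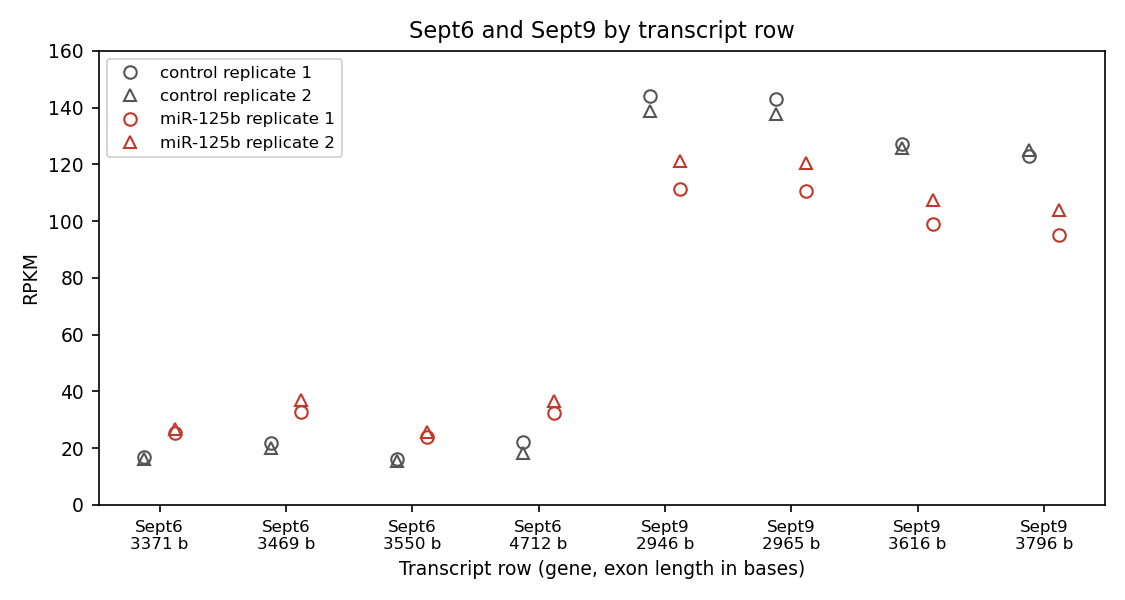
RPKM of each transcript row of Sept6 and Sept9, labelled with its exon length in bases; symbols are single libraries (grey control, red miR-125b, circles replicate 1, triangles replicate 2). In every row of Sept6 both miR-125b libraries lie above both controls, and in every row of Sept9 both lie below; rows of a gene share most of their exons and are not independent.

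Sept8 (chromosome 11, 53333302 to 53357598) measured 53.6 and 56.6 RPKM in the controls, against 48.6 and 52.4 RPKM with miR-125b. The groups did not overlap, but the nearest libraries differed by less than the replicates of a group did. The log2 difference was -0.12 ± 0.18 (SE). Sept11 (chromosome 5, 93522483 to 93603984) measured 69.7 and 58.2 RPKM in the controls, against 80.0 and 68.7 RPKM with miR-125b. Here the lower miR-125b library was below the higher control, and the difference was 0.22 ± 0.20 (SE), with adjusted p-values of 0.826 for Sept8 and 0.733 for Sept11 in limma's test. Without control replicate 2 the Sept11 difference was 0.089, and without control replicate 1 it was 0.34. That of Sept8 was -0.070 without miR-125b replicate 1.

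Within the group, the shares of Sept6 and Sept8 did not overlap between conditions. The same held for the shares of Sept3 and Sept9 in the Sept3 group. By RPKM the conditions did not overlap in 42.8% of all genes, so nothing particular to these septins is read from this. Shares of a group add up to the whole, so a rise of one and a fall of another are not separate observations. Sept6 made up 15.3% and 13.9% of the group's summed RPKM in the controls, against 20.1% and 23.2% with miR-125b. Sept8 made up 36.8% and 42.5% in control and 30.2% and 33.2% with miR-125b. Every miR-125b library thus held more Sept6 and less Sept8, as a share, than either control. The share of Sept11 overlapped, at 47.9% and 43.7% in control and 49.7% and 43.6% with miR-125b. A share within a library does not move with the scaling of that library. With 2 libraries a group no permutation of these shares can give a p under 0.05, and no test was made. With the shortest row of each gene, the Sept6 share differed by 5.0 percentage points in place of 7.1. The summed level of the group was 145.5 and 133.3 RPKM in the controls, against 161.1 and 157.7 RPKM with miR-125b.

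**Figure D3:**
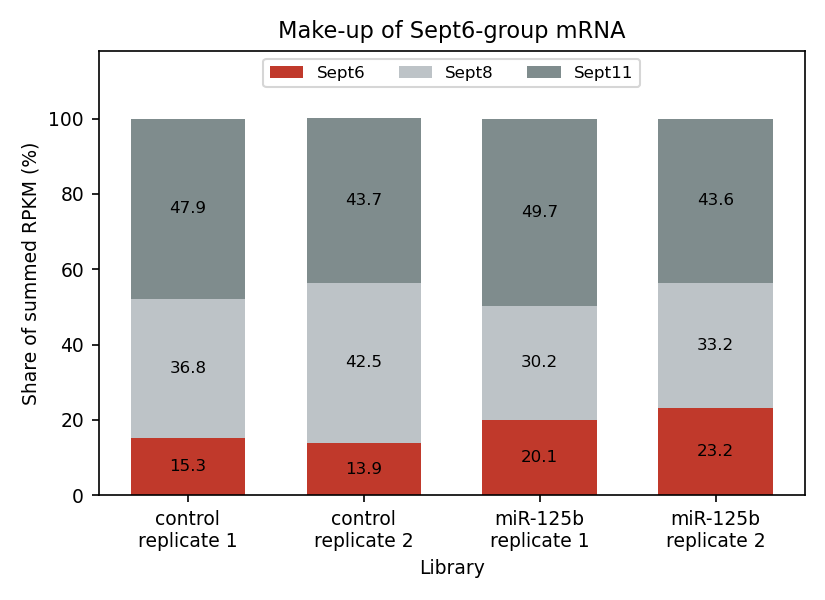
Stacked bars give the percent of summed RPKM held by Sept6, Sept8 and Sept11 in each library (Sept10 had no reads). The Sept6 part is 15.3% and 13.9% in the controls and 20.1% and 23.2% in the miR-125b libraries, with Sept8 smaller in the latter.

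The Sept3 group holds Sept9, which joins the rod in cells that express it and binds actin and microtubules, and Sept3, a septin known mainly from neurons. Sept9 (chromosome 11, 117127560 to 117223639) stood at 122.8 and 124.9 RPKM in the controls, against 95.2 and 103.7 RPKM with miR-125b. Both miR-125b libraries were lower than both controls, and the controls were close together. The means were 123.8 ± 1.51 and 99.5 ± 6.07 RPKM (SD, n = 2 each), 19.7% lower with miR-125b. The log2 difference was -0.31 ± 0.19 (SE), with an unadjusted p of 0.142 and an adjusted p of 0.620 in limma's test, and 22.8% of tested genes had a smaller p. No 6mer or longer match to the miR-125b seed was found in its 3′ UTR.

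The 4 rows of Sept9 start at different first exons. The row with the short first exon of 139 bases was the highest, with 144.2 and 138.6 RPKM in the controls, against 111.2 and 121.3 RPKM with miR-125b. The longest row instead begins with exons of 350 and 639 bases (chromosome 11, 117127560 to 117127909 and 117151712 to 117152350 in mm9). If a row's reads are those within its exons, the longest row's surplus over the shortest is a lower limit for these 989 bases. The surplus was 462 and 683 reads in control and 424 and 428 reads with miR-125b, or at least 41.6, 66.6, 34.0 and 36.9 RPKM. These upstream exons were therefore read in all 4 libraries, and the highest limit was that of control replicate 2. Compared with the row of 3616 bases, which starts further upstream, the longest row held 76 and 203 more reads in the controls, against 49 and 57 more with miR-125b. These are net differences, as 350 bases are found only in the longest row and 170 only in the other.

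Sept3 (chromosome 15, 82105365 to 82124872) carried the 7mer-m8 match shown above and was the least abundant septin with reads in every library. It stood at 3.86 and 5.89 RPKM in the controls, against 5.74 and 5.69 RPKM with miR-125b, on 205, 289, 343 and 316 reads. The miR-125b values lay between the controls, and control replicate 1 was the low library. The log2 difference was 0.22 ± 0.22 (SE), with an adjusted p of 0.754 in limma's test, and it was 0.47 without control replicate 2 and -0.036 without control replicate 1. Sept9 made up 97.0% and 95.5% of the group's summed RPKM in the controls, against 94.3% and 94.8% with miR-125b.

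The Sept2 group is represented by Sept2, a subunit found in most cells, and by Sept1, known from lymphocytes. Sept2 (chromosome 1, 95375638 to 95406307) measured 81.5 and 60.1 RPKM in the controls, against 73.7 and 71.9 RPKM with miR-125b. Both miR-125b values lay between the controls, and the log2 difference was 0.056 ± 0.22 (SE). Its direction turned without control replicate 2, to -0.16, and with a correction for GC content, to -0.089. Of its 4 transcript rows, 3 held equal read counts in each library, so 0 reads were counted in the 31 bases that the longest of these has over the shortest. How reads across exon borders were counted is not known. A lack of reads in so short a stretch therefore does not show that it was absent from the mRNA.

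Sept1 (chromosome 7, 134357956 to 134361959, minus strand) was at 74.6 and 107.7 RPKM in the controls, against 64.6 and 99.1 RPKM with miR-125b. Replicate 2 was above replicate 1 in both conditions, 1.44 times in control and 1.53 times with miR-125b, so that the spread within groups exceeded the difference between their means. The log2 difference was -0.16 ± 0.29 (SE), the p after adjustment in limma's test was 0.851, and the direction turned when control replicate 2 (0.10) or miR-125b replicate 1 (0.14) was left out. For Sept2 the adjusted p was 0.935 in limma's test.

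Sept7 is the sole member of its group and is needed in most septin rods. It (chromosome 9, 25060169 to 25116150) stood at 93.9 and 49.9 RPKM in the controls, against 89.9 and 83.0 RPKM with miR-125b. Control replicate 2 was far below the other 3 libraries, on 1240 reads against 2522, 2715 and 2332. The log2 difference of 0.33 ± 0.31 (SE; adjusted p = 0.731 in limma's test) was 0.78 without control replicate 1 and -0.12 without control replicate 2, so its direction depended on that library. The ratio of the Sept6 group to Sept7 was 1.55 and 2.67 in the controls and 1.79 and 1.90 in the miR-125b libraries, and that of the Sept3 group was 1.35 and 2.62 against 1.12 and 1.32.

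The gap between the control libraries differed among septins along with GC content. Control replicate 2 was below control replicate 1 by 0.90 for Sept7, on the log2(RPKM + 1) scale, whose transcript is 39.3% GC, and by 0.43 for Sept2 at 41.3%. It was above by 0.52 for Sept1 at 56.8% GC and by 0.50 for Sept3 at 51.1%. By contrast, Sept8 at 51.6% differed by 0.076 and Sept9 at 57.7% by 0.025. Across the 8 septins Spearman's rank correlation of the gap with GC content was 0.833, a description over genes that share the same 2 libraries. Among genes within 2 percentage points of the GC content of Sept7, the median gap was -0.34 (SD 0.42), smaller in size than that of Sept7. Around the GC content of Sept3 the median gap was 0.0067 (SD 0.42), against 0.50 for Sept3 itself. Gaps of single genes thus varied widely around both medians. With a correction of each library for its trend on GC content, chosen after the data had been seen, the difference between conditions was 0.17 for Sept7, 0.66 for Sept6 and -0.22 for Sept9. The part of GC content in these differences was not tested further.

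**Figure D4:**
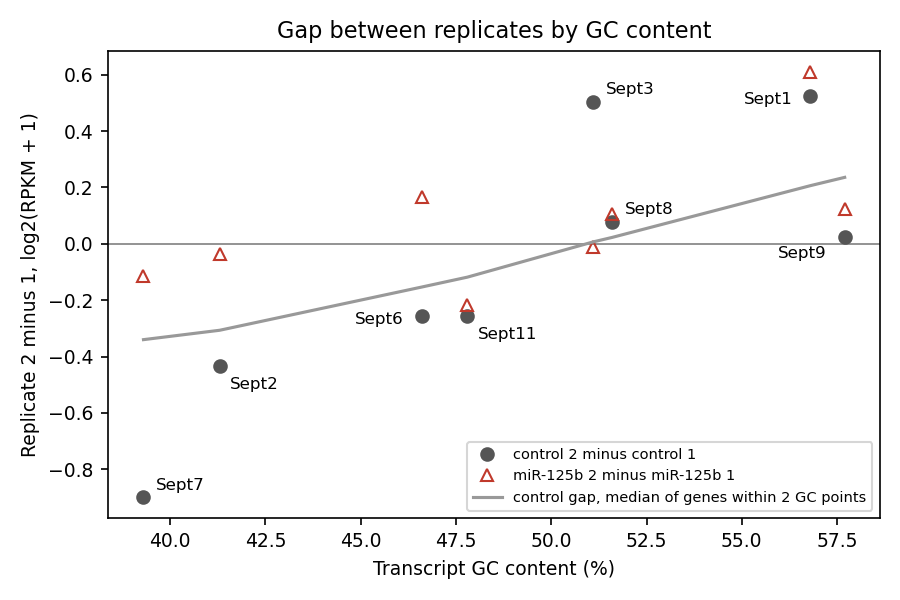
Difference of replicate 2 minus replicate 1 on the log2(RPKM + 1) scale against transcript GC content for the 8 septins; filled circles are the controls, open triangles the miR-125b libraries, and the line joins the median control gap of genes within 2 percentage points of each septin's GC content. The control gap runs from -0.90 for Sept7 to 0.52 for Sept1.

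**Figure D5:**
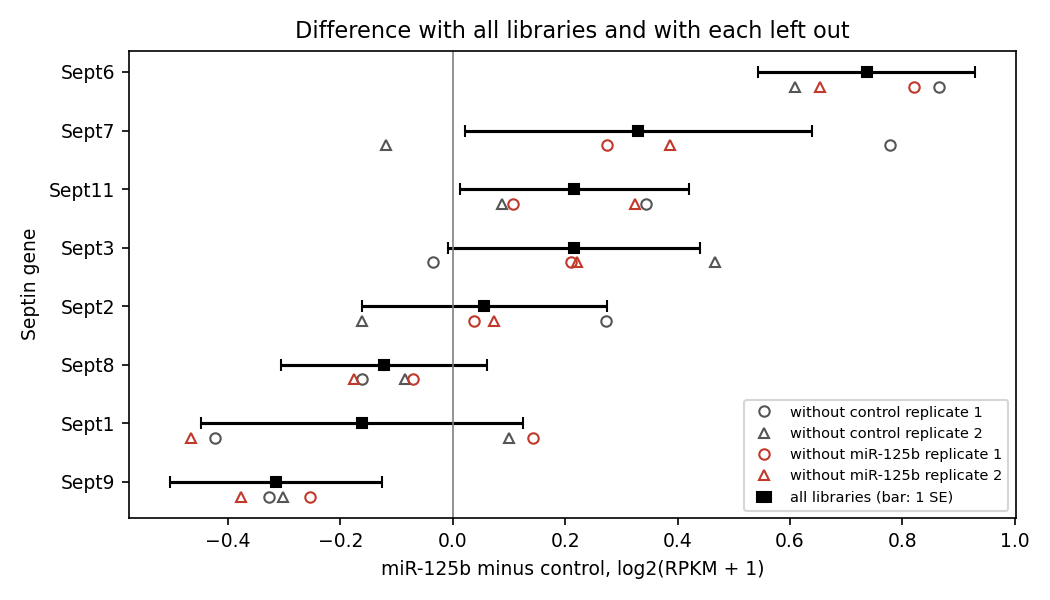
Log2 difference of miR-125b minus control for each septin (squares, with bars of 1 SE) and the same with each library left out in turn (open symbols). Sept6 lies between 0.61 and 0.86 in these fits, whereas Sept1, Sept2, Sept3 and Sept7 change sign when a library is left out.

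The genes that work with septins were counted from 3 lists. The first holds 14 partners and regulators, such as Cdc42 and its Borg effectors, of which 9 were tested. At an unadjusted p under 0.05, 2 were higher (4.17% of all genes) and 0 lower (5.21% of all genes), and 0 of 9 passed after adjustment in limma's test. The 2 became 4 without control replicate 1 and 0 without any other single library. The median log2 difference was 0.012, and it was 0.17 without control replicate 1 and below 0 without any other library (-0.11 without control replicate 2). Anln, which encodes anillin, the scaffold that recruits septins to the cleavage furrow, was at 25.1 and 19.6 RPKM in the controls, against 32.0 and 34.8 RPKM with miR-125b. Rtkn, encoding the septin-binding protein rhotekin, was at 1.09 and 1.12 against 1.94 and 2.14 RPKM. Both had higher values in both miR-125b libraries (adjusted p = 0.496 and 0.510 in limma's test). Of the 9, 2 were higher without overlap of the groups (22.3% of all genes) and 3 lower (20.4% of all genes). Myh9, the heavy chain of non-muscle myosin that septins hold at the cortex, was at 294.4 and 400.9 RPKM in the controls, against 251.4 and 281.6 RPKM with miR-125b. The calcium channel gene Orai1 was at 53.3 and 66.3 against 47.9 and 49.4 RPKM.

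The second list holds 22 cytokinesis genes, all tested, among them Anln again. The median log2 difference was 0.25, and 17 genes were higher and 5 lower. Of the 22, 13 were higher without overlap of the groups, or 59.1% against 22.3% of all genes, yet only 2 (4.17% of all genes) had an unadjusted p under 0.05 and 0 an adjusted one. These 2 became 10 without control replicate 1 and 0 when control replicate 2 or miR-125b replicate 2 was left out. Control replicate 2 was below control replicate 1 in 18 of the 22, with a median gap of -0.22, where 51.5% of all tested genes were lower in it. The part of that library in the list's direction was not tested beyond leaving it out, which gave a median of 0.14. Kif23, a kinesin of the central spindle, was at 15.5 and 9.52 RPKM in the controls, against 18.0 and 23.8 RPKM with miR-125b. The formin gene Diap3 was at 8.56 and 4.19 against 9.65 and 11.4 RPKM, and Ect2, which encodes a guanine nucleotide exchange factor of the furrow, at 8.71 and 5.46 against 9.02 and 12.2 RPKM. In each of these genes the lowest library was control replicate 2.

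The third list holds 21 actin and tubulin genes, of which 20 were tested, with 10 higher, 10 lower and a median of 0.012. Without overlap of the groups, 4 of the 20 were higher (22.3% of all genes) and 3 lower (20.4% of all genes). At an unadjusted p under 0.05, 2 were higher (4.17% of all genes) and 0 lower (5.21% of all genes), and 0 passed after adjustment in limma's test. The 2 became 6 without control replicate 1 and 0 without either miR-125b library, and the median was -0.038 without control replicate 1. The beta-tubulin gene Tubb6 was at 61.0 and 50.1 RPKM in the controls, against 87.0 and 79.1 RPKM with miR-125b, and Tuba1a at 6.16 and 9.15 against 11.2 and 11.6 RPKM. Tubulin genes have close copies, so reads may be shared among them. Tubb5 was at 482.0 and 439.9 against 563.0 and 588.9 RPKM. The profilin gene Pfn1 was lower in both miR-125b libraries, at 1031.5 and 1087 RPKM against 1232 and 1576 RPKM in control.

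Genes with a pattern most like a septin were found by the Euclidean distance between log2(RPKM + 1) values over the 4 libraries, each gene centred on its own mean. Nearest to Sept6 were Pdia6 (distance 0.0345), Cd320 (0.0501) and Rdh11 (0.0615), where the median distance of all tested genes was 0.806. Pdia6, a protein disulphide isomerase, stood at 195.2 and 160.5 RPKM in the controls, against 272.8 and 314.5 RPKM with miR-125b. Nearest to Sept9 were Phf7 (0.0357), Tln1 (0.0366) and Gmip (0.0409), where the median distance was 0.513. Tln1, encoding the integrin-binding protein talin, stood at 176.2 and 185.5 RPKM in the controls, against 140.1 and 150.8 RPKM with miR-125b. The named genes were picked for the smallest distances of all tested genes, so distances far below the median follow from that choice. They describe likeness in these 4 libraries only.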

How the data were processed

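RNA of 4 libraries was sequenced (2 control, 2 miR-125b, grouped by title). The authors deposited 1 table per library with 26982 RefSeq transcript rows and RPKM values. Coordinates are those of mm9, the build named in the submitters' processing notes. Aligner, counter and strand setting: not given in sources used here. Row order differed in control replicate 2 (9794 rows out of place), so tables were joined by transcript and position. RPKM times exon length was a whole multiple of 1 read in 100.0% of rows (tolerance 0.001 reads), which gave reads per row. Rows of a gene repeat shared reads, also in the total that RPKM were scaled to, and the longest row was kept. Over these rows libraries held 8.42, 7.73, 9.48 and 8.82 M reads.

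limma 3.58.1 (R 4.3.3) was used, trended and 2-sided, on log2(RPKM + 1), a scale that understates changes of low genes, with group as the only term, 2 residual and 4.63 prior degrees of freedom. The fit was also run on simulated reads without a GC trend or an outlying library, so that run does not vouch for the p-values here. The labels give 2 infections per condition without tying libraries to them, so p-values reflect only how these 4 samples varied, which may be technical. Alternatives were other pseudocounts, filters, scalings and rows, limma-voom, a replicate block, a GC correction and leaving out libraries. Members and lists were chosen with earlier results of these data known. Named were all septins, the 4 genes of smallest p in each list, the 3 genes most like Sept6 (smallest p) and Sept9 (most abundant), and Mir125b-1. Of 21506 genes, 99.0% were joined to GENCODE M21 by accession or symbol. Map4 had no row under that name.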

Additional observations from a re-analysis of the deposited data

How the results depend on the processing

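With all 4 libraries, 9 alternatives kept the direction of each septin except that of Sept2, which was -0.089 with the GC correction, and no septin reached an adjusted p under 0.05. Sept6 ran from 0.62 to 0.76 and Sept9 from -0.33 to -0.22 in these. With libraries left out in turn, where the lone sample of a group is assumed to vary like the other group, the log2 difference ran from -0.47 to 0.14 for Sept1, where it turned to 0.14 without miR-125b replicate 1 and, if control replicate 2 was dropped, to 0.10. It ran from -0.16 to 0.27 for Sept2, turning to -0.16 without control replicate 2, from -0.036 to 0.47 for Sept3, turning to -0.036 without control replicate 1, and from -0.12 to 0.78 for Sept7, turning to -0.12 without control replicate 2. It ran from 0.61 to 0.86 for Sept6, from -0.18 to -0.070 for Sept8, from -0.38 to -0.25 for Sept9 and from 0.089 to 0.34 for Sept11. The cause of these turns was not tested.

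Over all genes, 0 were called, 12 with a replicate block, and between 0 and 91 with libraries left out (1 without control replicate 2, and 91 and 25 without miR-125b replicates 1 and 2). At an unadjusted p under 0.05 there were 967, and between 332 (miR-125b replicate 2 left out) and 3007 (control replicate 1 left out). Replicate numbers are not stated to pair the cultures, and the deviations of same-numbered libraries correlated at 0.021. Under the block no septin was called, and of the partners 1 had an unadjusted p under 0.05.

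The median of the partners was -0.11 with the GC correction and ran from -0.11 to 0.17 with libraries left out. That of the actin and tubulin list ran from -0.041 to 0.087, and that of the cytokinesis list from 0.14 to 0.36. Of the partners, 1 had an unadjusted p under 0.05 with a mean of 5 RPKM required or quantile normalization, and between 0 and 4 with libraries left out. Of the cytokinesis genes it was 1 without a filter and between 0 and 10 with libraries left out. Of the actin and tubulin genes it was 1 without a filter or with limma-voom, and between 0 and 6. The Sept6 share differed by 5.0 percentage points with the shortest rows, and by 5.6 to 8.6 with libraries left out. The summed Sept2, Sept3 and Sept6 groups had log2 ratios of -0.23 to 0.078, -0.35 to -0.23 and 0.13 to 0.26 with libraries left out.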
